A study of Mus musculus with 8 samples.

Results

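Wnt proteins are secreted, lipid-modified ligands. They bind Frizzled receptors together with the co-receptors LRP5 or LRP6, which blocks the Axin, APC and GSK3 complex that otherwise marks β-catenin for destruction, so that β-catenin reaches the TCF/LEF factors on DNA. Secreted antagonists such as the SFRP, DKK and WIF proteins act outside the cell. In mesenchymal cells the pathway is known for favouring bone over fat formation and for its exchange with BMP signalling.

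The genes described here are 43 members of this pathway: 10 ligands, 12 receptors and co-receptors, 10 antagonists with the DKK co-receptor gene Kremen1, the ligand-modifying enzyme gene Porcn, 7 cytoplasmic components and 3 TCF/LEF factors. They were found by the gene symbol in the deposited annotation, on rows that name 1 gene, among 13277 genes with such a row. All 43 were on the array, with 69 probe sets. Each gene was represented by its probe set with the highest mean signal over all 8 arrays, and the 26 others served as support. The data are MAS5 signals, linear intensities scaled per array, from Affymetrix mouse 430A arrays. C3H10T1/2 is a mouse mesenchymal cell line of embryonic origin that can form bone, cartilage and fat cells. Cells at confluence received 3.3 nM BMP7, a secreted bone morphogenetic protein, or vehicle for 3 days, with 4 samples in each group, called Vehicle 1 to 4 and BMP7 1 to 4 by the labels' numbers. The groups differ by the BMP7 treatment alone, per the labels, and no gene was altered in either. All come from 1 cell line, and nothing in the labels says that the samples of a group were separate cultures, so the p-values given here reflect only how far these samples lie from each other, and that may be technical variation.

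The vehicle arrays were less alike than the BMP7 arrays. The lowest Pearson correlation of log2 values was 0.855 and the highest 0.944 among vehicle arrays, against 0.947 and 0.966 among BMP7 arrays. For Actb, the signal at the 3' end over that at the 5' end, a ratio that is higher in degraded RNA, was 6.55 on Vehicle 3 and 1.17 to 1.40 on the other arrays. The mean log2 signal of 18 added hybridisation control probe sets was 12.37 on Vehicle 1, 12.60 on Vehicle 2 and 13.25 on Vehicle 3, against 11.92 on Vehicle 4 and 11.72 to 11.96 on the BMP7 arrays. Of 9 mesenchymal marker genes 8 lay above the signal filter, and of 6 epithelial markers none. The summed signal of the mesenchymal markers was 256361 to 369780 in vehicle and 194392 to 232869 in BMP7 cells, so the groups did not overlap. Of 3 neuronal markers 1, Stmn2, lay above the filter. The summed signal of the 3 was 544 to 733 in vehicle and 1062 to 1472 in BMP7 cells. Most of that difference came from Stmn2 alone, whose signals are given under the other observations. The part of these markers in the results on Wnt genes was not tested. The filter kept 1 of 5 endothelial and 3 of 5 macrophage or immune markers. In bulk RNA, fewer cells of a type and less RNA per cell cannot be told apart.

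Of the 43 genes 22 had a mean above the filter, which corresponds to a signal of about 324, and were tested. In limma, with p adjusted over all tested probe sets at 0.05, none of the 22 passed, in a comparison where 3.13% of all tested probe sets did (1.63% higher and 1.5% lower in BMP7). At an unadjusted p under 0.05 there were 7, of which 4 were higher (Fzd1, Fzd9, Lrp5 and Lrp6) and 3 lower (Porcn, Dvl1 and Tcf7l2) in BMP7 cells. The same level was reached by 21.8% of all tested probe sets, 12.5% higher and 9.36% lower. These counts moved with the processing: in the alternatives that kept a signal filter they were 1 to 5 higher and 0 to 3 lower. With quantile normalization or median centring 1 was higher, and without the probe sets ending _x_at, _s_at or _a_at, without BMP7 3 or without BMP7 4 none was lower. The median log2 fold change of the 22 was 0.06, and that of all tested probe sets 0.04. With median centring both were below 0, at -0.03 and -0.05. The other 21 genes had low signals and were compared in the fit with no filter, where Tcf7 passed and the others did not. That fit called 1.54% of 22626 probe sets, 0.743% higher and 0.8% lower. The groups did not overlap for 4 of the 43 genes, Tcf7 (higher) and Dkk2, Porcn and Dvl1 (lower), while 11.5% of all probe sets had groups that did not overlap.

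**Figure D1:**
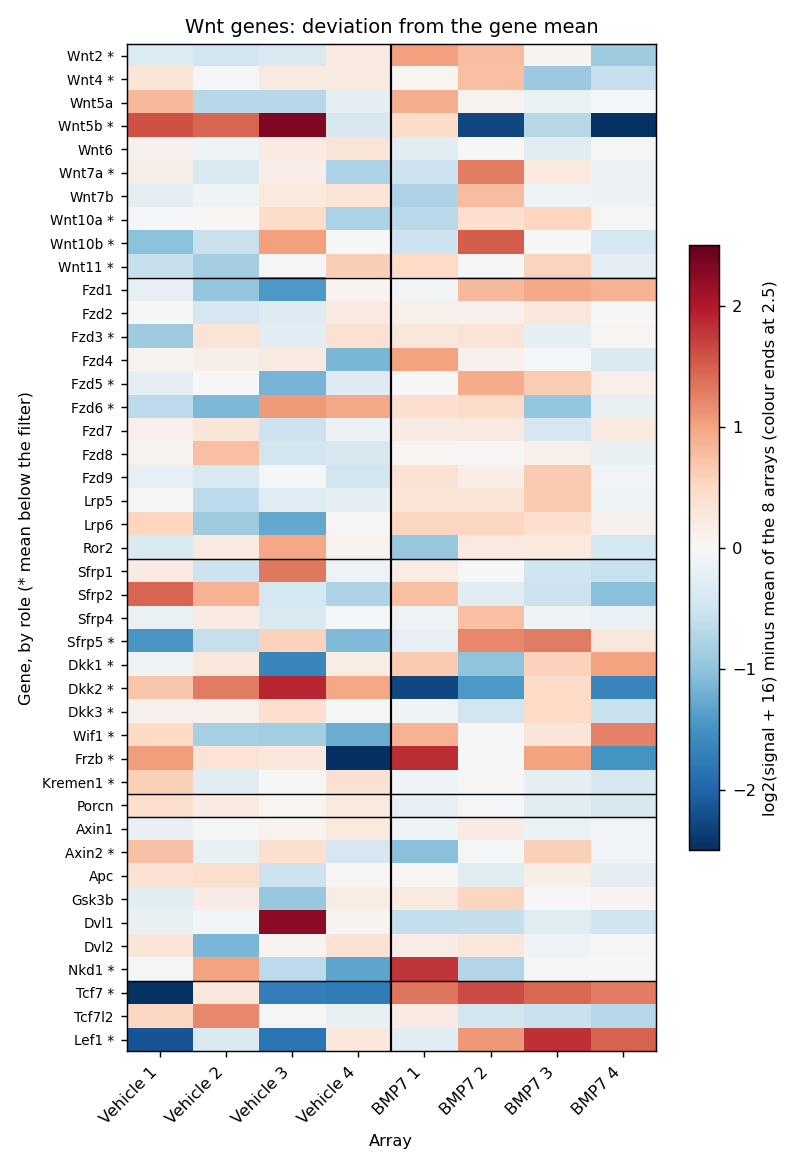
Heat map of the 43 genes (rows, by role) on the 8 arrays (columns). Colour gives the log2(signal + 16) minus the gene's mean over the 8 arrays, with the colour scale ending at 2.5 on either side, and an asterisk marks the 21 genes below the filter. Tcf7 is below its mean on Vehicle 1, 3 and 4 and above it on all BMP7 arrays, and Dkk2 is above its mean on all vehicle arrays.

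The 3 factors that carry β-catenin's signal on DNA are described first, with the sequence before their start sites, because 2 of them had the largest higher values among the 43 genes. Tcf7 encodes TCF1 and Lef1 its close relative, both of which bind DNA through an HMG box, and Tcf7l2 encodes TCF4. The RefSeq sequences (GRCm38.p6) are the 250 bases before the gene's outermost start in the table, 5′ to 3′ on the gene's strand. That table is not complete, and longer transcripts can begin further upstream, so a window may lie inside a longer transcript. This doubt applies to the Tcf7 window, which holds an ATG 165 bases before the listed start. That ATG opens a frame of 55 codons, itself included, with no stop up to the window's end. Distances in the Tcf7 window may therefore not be promoter positions. Neither of the other windows printed holds such a frame. For Tcf7 this is chr11:52283015-52283264 on the minus strand, for Lef1 chr3:131110047-131110296 on the plus strand and for Tcf7l2 chr19:55741560-55741809 on the plus strand. Capitals mark the hexamer GGCGCC, a GC-rich motif known to be bound by BMP-activated SMAD proteins, which reads the same on both strands.
Tcf7: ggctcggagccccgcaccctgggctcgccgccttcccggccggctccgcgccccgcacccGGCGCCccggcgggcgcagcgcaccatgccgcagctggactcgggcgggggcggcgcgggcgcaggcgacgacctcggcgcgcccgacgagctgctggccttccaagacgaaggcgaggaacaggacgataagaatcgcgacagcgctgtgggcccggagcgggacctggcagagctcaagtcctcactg
Lef1: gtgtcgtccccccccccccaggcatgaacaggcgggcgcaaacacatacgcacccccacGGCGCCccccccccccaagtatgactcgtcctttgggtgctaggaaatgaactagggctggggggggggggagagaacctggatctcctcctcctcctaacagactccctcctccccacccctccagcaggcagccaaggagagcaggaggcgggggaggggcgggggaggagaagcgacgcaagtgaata
Tcf7l2: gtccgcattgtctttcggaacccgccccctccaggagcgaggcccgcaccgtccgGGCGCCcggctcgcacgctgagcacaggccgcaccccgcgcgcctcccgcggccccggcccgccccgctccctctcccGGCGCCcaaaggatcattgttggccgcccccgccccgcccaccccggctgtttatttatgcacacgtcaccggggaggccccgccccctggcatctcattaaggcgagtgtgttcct

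The Tcf7 window holds GGCGCC 1 time, with its first base 190 bases before the start, the Lef1 window 1 time at 191 bases, and the Tcf7l2 window 2 times at 117 and 195 bases. Of 32817 RefSeq windows of this length 9.59% hold the hexamer, and of the 9171 with at least 60% G and C 26.1% do. The 3 windows printed are all of that GC-rich kind, with 76.0%, 66.4% and 72.8% G and C. Of the 43 genes 27 had windows in the table, 35 in all, and 11 of these 35 windows held the hexamer. They belonged to 9 genes: Tcf7, Lef1, Tcf7l2, Fzd4, Fzd9, Ror2, Wnt2, Wnt4 and Wnt11. The TCF/LEF motifs CTTTGAT and CTTTGAA, searched on both strands, were found in 3 of the 35 windows, 1 each of Dkk1, Wnt11 and Wnt5b. They were found in 7.48% of all windows and in 2.31% of those with at least 60% G and C. A match is a string of letters and shows no binding.

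Tcf7, on chromosome 11, had signals of 20.6, 227, 45.1 and 44.0 on Vehicle 1 to 4 and 494, 611, 533 and 474 on BMP7 1 to 4. All BMP7 arrays were above all vehicle arrays, and Vehicle 2 was the highest of its group. The means were 84.2 ± 96.0 and 528 ± 60.6 (SD, n = 4 each). In limma with no filter Tcf7 rose by a log2 fold change of 2.84 ± 0.53 SE, 7.16-fold on the log2(signal + 16) scale, with an adjusted p of 0.0271. The second probe set of Tcf7 had 57.8, 209.9, 55.6 and 68.3 in vehicle and 451, 464, 405 and 377 in BMP7 cells, a log2 fold change of 2.13 ± 0.42 SE with an adjusted p of 0.0340 in the same limma fit. The authors' deposited table gives Tcf7 a ratio of 6.27 with an unadjusted p of 5.17e-04. Its vehicle signals lie below the filter, so the fold depends on the added constant, with a log2 fold change of 3.22 at a pseudocount of 1 and 2.18 at 64. The call was lost without Vehicle 1 or any 1 of the BMP7 arrays (limma adjusted p 0.0624 to 0.0980) and with the hybridisation controls in the model (log2 fold change 3.02, adjusted p 0.228). With 1 array left out in turn the log2 fold change was 2.49 to 3.40.

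Lef1, on chromosome 3, had 8.30, 69.4, 14.8 and 115 on Vehicle 1 to 4 and 73.3, 215, 369.8 and 289 on BMP7 1 to 4. BMP7 1 lay below Vehicle 4, so the groups overlapped, and the other BMP7 arrays were above every vehicle array. BMP7 minus vehicle, the log2 difference was 2.05 ± 0.63 SE, and the adjusted p in limma with no filter was 0.137. The single probe set of Lef1 is of a type (_a_at) shared by transcripts of 1 gene.

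Tcf7l2, on chromosome 19, gave different directions on different probe sets. The reported probe set had 2454, 3945, 1686 and 1507 in vehicle and 1981, 1237, 1157 and 1037 in BMP7 cells, a log2 fold change of -0.76 ± 0.32 SE (unadjusted p 0.0345, adjusted p 0.194 in limma). The groups overlapped through BMP7 1, and the probe set is of the _s_at type, which can cross-hybridise. Another 2 tested probe sets had log2 fold changes of -0.42 ± 0.35 SE and -0.65 ± 0.32 SE. The fourth, below the filter, ran the other way, with 186, 101, 179 and 74.4 in vehicle and 432, 817, 377 and 344 in BMP7 cells. Its groups did not overlap, with a log2 fold change of 1.75 ± 0.41 SE and an adjusted p of 0.0636 in limma with no filter. The probe sets may read different transcripts of Tcf7l2, which was not tested.

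**Figure D2:**
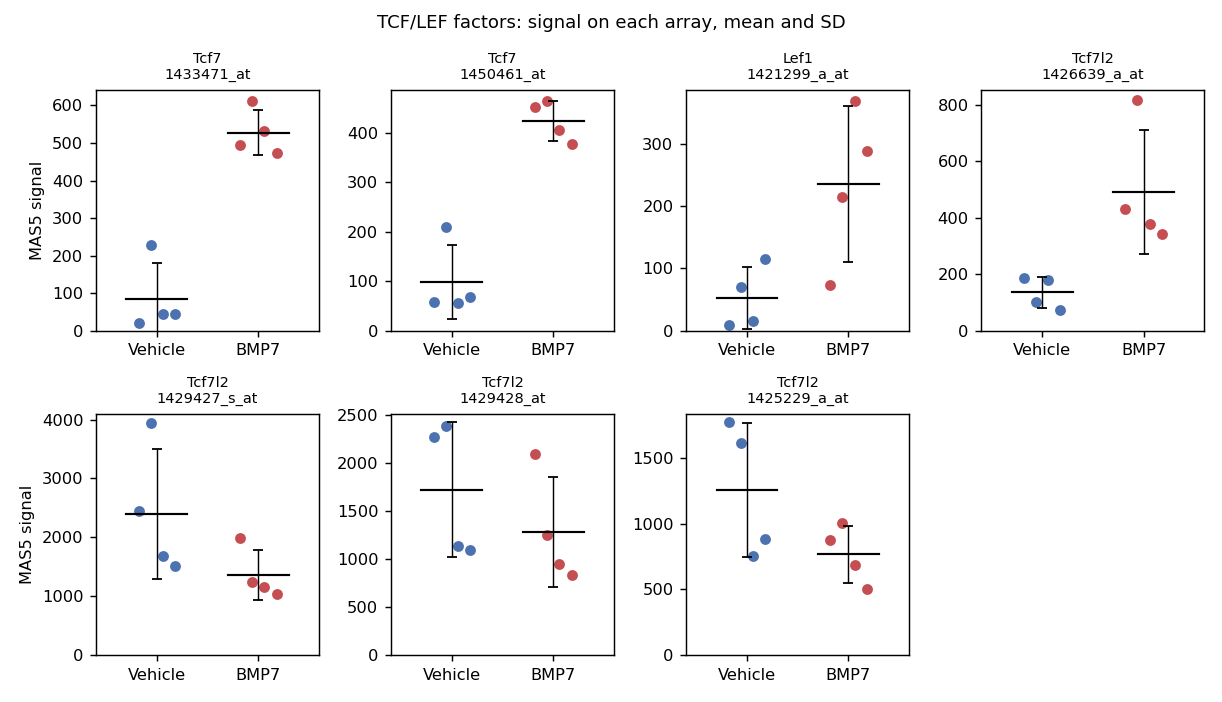
MAS5 signal (linear, y axis from 0) of the 7 probe sets of Tcf7, Lef1 and Tcf7l2 on the 4 vehicle (blue) and 4 BMP7 arrays (red), with the mean as a line and the SD as a bar. Both Tcf7 probe sets and the low-signal Tcf7l2 probe set have every BMP7 array above every vehicle array, and the 3 other Tcf7l2 probe sets have lower means in BMP7 cells.

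Among the 10 ligand genes, 3 lay above the filter and none differed in limma at an unadjusted p under 0.05. Wnt5a, the main ligand of the β-catenin-independent branch, on chromosome 14, had 1266, 432, 433 and 604 in vehicle and 1355, 760.4, 630.3 and 689 in BMP7 cells. Number 1 was the highest array of each group, and the difference was 0.40 ± 0.37 SE (limma's adjusted p 0.541). Its second probe set had 495, 393, 479 and 362 and 1177, 611, 507 and 551, which did not overlap, with a log2 fold change of 0.63 ± 0.29 SE (limma's adjusted p 0.238).

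Wnt6 had 509 ± 63.1 in vehicle and 422 ± 53.1 in BMP7 cells, and Wnt7b 804 ± 149.5 and 779 ± 372. Their 95% intervals of the log2 fold change were -0.76 to 0.24 and -0.82 to 0.54, so changes of the size of Fzd1's were outside both.

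The ligand with the lowest p in the fit with no filter was Wnt5b, a relative of Wnt5a on chromosome 6, singled out after its values were seen. Its signals were 568, 515, 943 and 129 on Vehicle 1 to 4 and 249.8, 23.8, 103 and 19.0 on BMP7 1 to 4. Vehicle 4 was low among the vehicle arrays and lay below BMP7 1. On the log2 scale the difference was -2.48 ± 0.73 SE (no-filter limma fit, adjusted p 0.123), on a probe set of the _x_at type, which can cross-hybridise. The second probe set had 495, 212, 309.9 and 64.8 in vehicle and 94.1, 96.6, 38.9 and 40.5 in BMP7 cells, again with Vehicle 4 among the BMP7 values. Wnt2, Wnt4, Wnt7a and Wnt10b stayed at signals of 9.80 to 259.8 over all 8 arrays, and Wnt10a and Wnt11 at 120.4 to 388. None of these 6 reached an unadjusted p under 0.05 in the fit with no filter.

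Porcn, on the X chromosome, encodes the enzyme that attaches the lipid without which Wnt ligands are not secreted. Its signals were 973, 826, 733 and 840.0 in vehicle and 612, 689.7, 576 and 538 in BMP7 cells. All 4 BMP7 arrays were below all 4 vehicle arrays. The means were 843 ± 99.0 and 604 ± 64.8 (n = 4 each), a log2 fold change of -0.47 ± 0.20 SE with an unadjusted p of 0.0377 and an adjusted p of 0.204 in limma.

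Of the 12 receptor and co-receptor genes 9 were tested. The log2 fold change was above 0 for 8 of the 9, and its median was 0.35, beside 0.04 over all tested probe sets, of which 53.5% were above 0. None passed limma's adjusted threshold, and 4 of the 9 were higher at an unadjusted p under 0.05, beside 12.5% of all tested probe sets. That 4 became 1 with quantile normalization, median centring or the hybridisation controls in the model, and without BMP7 1 or BMP7 3. With quantile normalization 7 were above 0 (median 0.35), and with median centring 7 (median 0.26). Without Vehicle 3 there were 6 above 0 (median 0.48). There were also 6 with the Actb 3'/5' ratio in the model (median 0.43) and 6 with array weights (median 0.26). With the hybridisation controls in the model 5 were above 0 and the median was 0.07.

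Fzd1, a Frizzled receptor on chromosome 5, had the lowest p of the 22 tested Wnt genes. Its signals were 857, 495, 359.7 and 1042 on Vehicle 1 to 4 and 954, 1757, 1936 and 1820.5 on BMP7 1 to 4. BMP7 1 lay below Vehicle 4 and far from the other BMP7 arrays, while Vehicle 2 and Vehicle 3 were the lowest. The means were 688 ± 316 and 1617 ± 448 (n = 4 each), a log2 fold change of 1.28 ± 0.35 SE (95% interval 0.51 to 2.05, adjusted p 0.0714 in limma). The gene passed without Vehicle 4 (log2 fold change 1.52, adjusted p 0.0276 in limma) and with array weights (1.06, adjusted p 0.0208). With the hybridisation control signal, highest on Vehicle 3 and second highest on Vehicle 2, as a covariate it was 0.54 (adjusted p 0.658 in limma).

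Fzd9, also on chromosome 5, had 789, 700.5, 883 and 657 in vehicle and 1182, 1022, 1443 and 876 in BMP7 cells. Only BMP7 4 lay within the range of the vehicle arrays, below Vehicle 3. The log2 fold change was 0.55 ± 0.21 SE (unadjusted p 0.0254, adjusted p 0.168 in limma).

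The co-receptor gene Lrp5, on chromosome 19, had 736, 467, 603 and 635 in vehicle and 936, 938, 1177 and 686 in BMP7 cells. Here too BMP7 4 was the 1 array within the vehicle range. On the log2 scale the difference was 0.59 ± 0.23 SE (limma's adjusted p 0.175). Its partner Lrp6, on chromosome 6, had 1119, 404, 305 and 784 in vehicle and 1111, 1109, 1021 and 828 in BMP7 cells. Vehicle 1 was as high as the BMP7 arrays, and Vehicle 2 and Vehicle 3 were low, as for Fzd1. The log2 fold change of Lrp6 was 0.80 ± 0.36 SE (limma's adjusted p 0.228), and -0.047 with the hybridisation controls in the model.

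**Figure D3:**
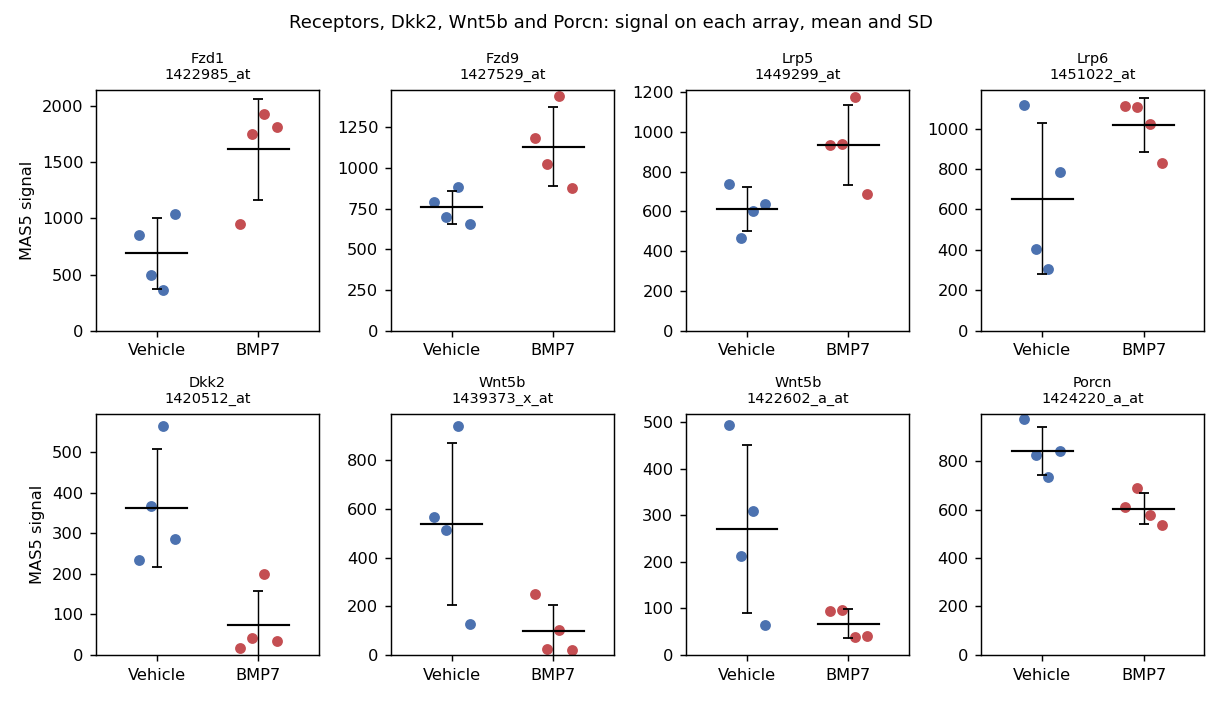
MAS5 signal (linear, y axis from 0) of Fzd1, Fzd9, Lrp5, Lrp6, Dkk2, Wnt5b (both probe sets) and Porcn on the 4 vehicle (blue) and 4 BMP7 arrays (red), with the mean as a line and the SD as a bar. Dkk2 and Porcn have every BMP7 array below every vehicle array, and the groups overlap in the other 6 panels.

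The remaining Frizzled genes gave no difference at an unadjusted p under 0.05 on their reported probe sets in limma. Fzd2 had 6490.1 ± 1359.8 in vehicle and 7671 ± 585 in BMP7 cells, with a 95% interval of the log2 fold change from -0.14 to 0.67. The third Fzd2 probe set ran the other way, at 4083, 8968, 8268 and 4502 in vehicle and 3515, 4282, 4416 and 4046 in BMP7 cells, where Vehicle 2 and Vehicle 3 were well above the other arrays. That probe set had a log2 fold change of -0.58 ± 0.27 SE (unadjusted p 0.0497, adjusted p 0.228 in limma). The probe sets of Fzd2 thus did not share a direction.

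Fzd7 had 2295 ± 548 and 2478 ± 487 (95% interval -0.40 to 0.63), and Fzd8 2459 ± 1050.2 and 2338 ± 215 (95% interval -0.57 to 0.59). Fzd4, whose ligands include norrin, had 3008 ± 1057 and 3847 ± 1768 (95% interval -0.43 to 1.13). The second probe sets of Fzd4 and Fzd7 lay below the filter and had groups that did not overlap. That of Fzd4 had 14.6 to 126 in vehicle and 144 to 268 in BMP7 cells, and that of Fzd7 164 to 209 and 264 to 497. Neither passed limma's fit with no filter (adjusted p 0.264 for both).

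Ror2, a receptor tyrosine kinase for Wnt5a on chromosome 13, was the tested receptor with a negative value. Its signals were 380.2, 584, 988 and 531 in vehicle and 252, 583, 596 and 362 in BMP7 cells. The groups overlapped, with a log2 fold change of -0.45 ± 0.36 SE (limma's adjusted p 0.478). Among the low-signal receptors Fzd5 had 197, 233, 94.9 and 182 in vehicle and 232, 458, 372 and 255 in BMP7 cells (no-filter limma fit, adjusted p 0.297), singled out as the only 1 of the 3 with an unadjusted p under 0.05 there. Fzd3 ranged from 158 to 406 and Fzd6 from 22.4 to 159 over the 8 arrays.

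**Figure D4:**
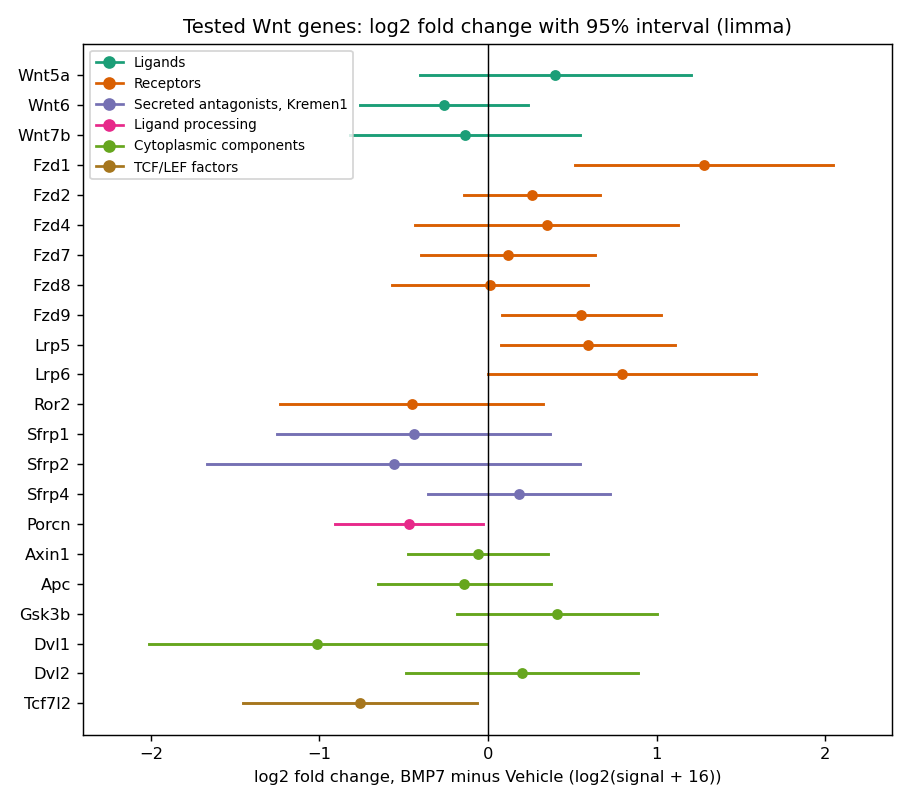
Log2 fold change (BMP7 minus vehicle, x axis, on the log2(signal + 16) scale) of the 22 tested genes (y axis), with the point as limma's estimate and the line as its 95% interval, coloured by role. Of the 9 receptors 8 lie above 0, and Fzd1 has the highest estimate at 1.28.

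Among the antagonists 3 of 10 were tested, all SFRP genes, whose products bind Wnt ligands through a Frizzled-like cysteine-rich domain. Sfrp2, on chromosome 3, had 8164, 5437, 2158 and 1719.9 in vehicle and 5008, 2412, 2015 and 1422 in BMP7 cells. The vehicle arrays spread widely, Vehicle 1 being the highest, and in each group number 1 was highest and number 4 lowest. The log2 fold change of -0.56 ± 0.50 SE (95% interval -1.67 to 0.54, adjusted p 0.534 in limma) did not pass.

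Sfrp1 had 857 ± 535 in vehicle and 568 ± 148 in BMP7 cells on its reported probe set (limma's adjusted p 0.507). Its 4 probe sets did not share a direction. Sfrp4 had 1099.8 ± 186 and 1286 ± 449 (limma's adjusted p 0.690). Sfrp5, below the filter, had 81.2, 163, 379 and 108 in vehicle and 216, 596, 637 and 308 in BMP7 cells (a log2 difference of 1.29 ± 0.51 SE, with an adjusted p of 0.239 in limma with no filter). Vehicle 3 was above BMP7 1 and BMP7 4 for Sfrp5, and the other vehicle arrays were below all BMP7 arrays.

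Dkk2, on chromosome 3, encodes a Dickkopf protein, a ligand of LRP5 and LRP6 that can block them. Its signals were 234, 366, 566 and 285 on Vehicle 1 to 4 and 16.1, 41.3, 199.6 and 33.3 on BMP7 1 to 4. All BMP7 arrays were below all vehicle arrays, and BMP7 3 was the 1 close to the vehicle range. The means were 363 ± 146 and 72.6 ± 85.3 (n = 4 each). BMP7 minus vehicle, the log2 difference was -2.44 ± 0.57 SE, 5.41-fold lower on the log2(signal + 16) scale, with an adjusted p of 0.0638 in limma with no filter, which missed the threshold. It passed without BMP7 3 (adjusted p 0.0285 in limma) and with the replicate block (0.0339). Limma's adjusted p was 0.172 without BMP7 2, 0.182 without BMP7 4, 0.116 with the Actb 3'/5' ratio in the model and 0.562 with the hybridisation controls in the model, where the log2 difference was -1.78. The size depended on the added constant, at -2.86 with a pseudocount of 1 and -1.76 with 64 (adjusted p 0.0724 and 0.0566). The authors' deposited table gives Dkk2 a ratio of 0.200 with an unadjusted p of 0.0195.

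Dkk1, the best known member of that family and itself a target of the pathway, had 105, 139.6, 25.3 and 129 in vehicle and 185, 48.1, 176 and 241 in BMP7 cells. The groups overlapped, with a log2 fold change of 0.62 ± 0.56 SE (no-filter limma fit, adjusted p 0.625). Dkk3 ranged from 163 to 360.0, Kremen1 from 214 to 444 and Frzb, another secreted Frizzled-related protein, from 9.80 to 731 over the 8 arrays. Wif1, which binds Wnt ligands directly, ranged from 1.30 to 41.9 in vehicle and from 25.4 to 81.5 in BMP7 cells, all below the filter signal. The log2 difference of Wif1 was 1.22 ± 0.45 SE (no-filter limma fit, unadjusted p 0.0212, adjusted p 0.211). None of these 4 passed the fit with no filter.

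Of the 7 cytoplasmic genes 5 were tested. Axin1, the scaffold of the destruction complex, had 1166 ± 147 in vehicle and 1118 ± 138 in BMP7 cells, with a 95% interval of the log2 fold change from -0.47 to 0.35. Apc, a second scaffold, had 2112 ± 567 and 1870.0 ± 263 (95% interval -0.65 to 0.37). The kinase gene Gsk3b had 1412 ± 473 and 1809.8 ± 307 (95% interval -0.18 to 1.0), with Vehicle 3 the lowest array. Dvl2, 1 of the Dishevelled adaptors that relay the receptor's signal, had 1022 ± 394 and 1095 ± 125 (95% interval -0.49 to 0.89). The second Dvl2 probe set, below the filter, had a log2 difference of 1.88 ± 0.71 SE (no-filter limma fit, adjusted p 0.220). Another tested probe set of Axin1 was at 0.37 ± 0.31 SE. For Apc the others were at -0.44 ± 0.35 SE and 1.03 ± 0.72 SE. Of the 5 genes 2 were above 0, and 4 with the mean of each gene's tested probe sets.

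Dvl1, on chromosome 4, depended on the probe set and on 1 array. Its reported probe set had 1190.4, 1290.0, 6431 and 1425 in vehicle and 887, 892, 1093 and 953 in BMP7 cells. All BMP7 arrays were below all vehicle arrays, but Vehicle 3, the array with the raised 3'/5' ratio, was more than 4 times as high as any other. The log2 fold change was -1.01 ± 0.45 SE (unadjusted p 0.0472, adjusted p 0.223 in limma), and -0.44 without Vehicle 3. The other Dvl1 probe set had 1639 ± 246 in vehicle and 1535 ± 104 in BMP7 cells, a log2 fold change of -0.08 ± 0.18 SE.

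Axin2 and Nkd1 are feedback inhibitors whose transcripts rise when β-catenin signalling is active, and with Lef1, Tcf7 and Dkk1 they serve as readouts of it. Axin2, on chromosome 11, had 411, 209.7, 326 and 175 in vehicle and 108, 235, 374 and 228 in BMP7 cells. The groups overlapped. In log2 terms the difference was -0.27 ± 0.43 SE, with a 95% interval from -1.22 to 0.68 (no-filter limma fit, adjusted p 0.805). Its direction turned without BMP7 1 (0.032) and with the hybridisation covariate (0.12). Nkd1, on chromosome 8, had 65.8, 154, 37.6 and 18 in vehicle and 277, 34.7, 66.1 and 69.3 in BMP7 cells, where BMP7 1 alone exceeded the vehicle range. Its log2 fold change was 0.51 ± 0.63 SE (no-filter limma fit, adjusted p 0.734). Of these 5 readouts Tcf7 rose in that fit, and Lef1, Dkk1, Axin2 and Nkd1 did not pass.

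Other genes of the pathway were taken from a list of further ligands, receptors, R-spondins, kinases and β-catenin partners, of which 67 had a probe set and 40 were tested. In limma 2 rose and none fell, and at an unadjusted p under 0.05 there were 4 in each direction. Over all tested probe sets 3.13% passed the adjusted threshold, and 12.5% were higher and 9.36% lower at the unadjusted level. The median log2 fold change of the 40 was -0.11. Ctnnbip1, on chromosome 4, encodes ICAT, which binds β-catenin and keeps it from TCF factors. Its signals were 2424, 1675, 1691 and 2049 in vehicle and 3906, 3976, 4320.4 and 4688 in BMP7 cells. The groups were far apart relative to their spread, with a log2 fold change of 1.11 ± 0.18 SE (limma's adjusted p 0.0110), on a probe set of the _a_at type. Its call was lost without BMP7 2, BMP7 3 or BMP7 4 and with the hybridisation covariate (highest adjusted p 0.178 in limma).

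Ctnnd1, on chromosome 2, encodes p120-catenin, which binds cadherins and the repressor Kaiso. Its signals were 5005, 5502, 2488 and 3455 in vehicle and 8617, 13056, 8174 and 9648 in BMP7 cells. The groups did not overlap, with a log2 fold change of 1.30 ± 0.26 SE (limma's adjusted p 0.0289). Its call was lost without any 1 of the BMP7 arrays and with the hybridisation covariate (highest adjusted p 0.336 in limma). Ctnnb1, the β-catenin gene itself, had 25067, 28701, 25533 and 23004 in vehicle and 21508, 21019, 22051 and 21839 in BMP7 cells, which did not overlap (log2 difference -0.24 ± 0.14 SE, limma's adjusted p 0.333).

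Tnks2, a tankyrase that marks Axin for destruction, on chromosome 19, had 7484, 11976, 13194 and 7579.8 in vehicle and 5089, 5104, 5439.9 and 5605 in BMP7 cells. The groups did not overlap, and Vehicle 2 and Vehicle 3 were the highest. BMP7 minus vehicle, the log2 difference was -0.87 ± 0.21 SE, with an adjusted p of 0.0534 in limma. The lipase gene Notum, whose product removes the lipid from Wnt ligands, had 387, 458, 435 and 871 in vehicle and 894, 1115, 802 and 1389.6 in BMP7 cells (limma's adjusted p 0.0886). It passed with the replicate block, with array weights and without Vehicle 4, the highest vehicle array. Cby1, another β-catenin antagonist, had 432, 343, 512 and 406 and 837, 770.3, 549.6 and 889, which did not overlap (limma's adjusted p 0.0887).

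The other 3 lower genes, named for an unadjusted p under 0.05 in limma, also had groups that did not overlap. Such groups were seen for 9 of the 40 tested genes of this list and for 15.4% of all tested probe sets. Gpc4, which encodes a cell-surface glypican, had 5737, 4998, 6308 and 5075 in vehicle and 4718, 3746, 3431 and 3128 in BMP7 cells, a log2 difference of -0.57 ± 0.18 SE (limma's adjusted p 0.113). Csnk1d, a casein kinase gene, had 5398, 6663, 12575 and 4928 in vehicle and 3876, 4541, 4038 and 4069.6 in BMP7 cells, a log2 difference of -0.73 ± 0.27 SE (limma's adjusted p 0.147), with Vehicle 3 far above the other arrays. Mesd, whose product is a chaperone of LRP5 and LRP6, had 6921, 6886, 7195 and 6843 in vehicle and 5611, 5354, 5023 and 5516 in BMP7 cells, a log2 difference of -0.37 ± 0.15 SE (limma's adjusted p 0.176).

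A further list held known transcriptional targets of β-catenin outside the 43 genes, 5 of them also on the list above. Of its 28 genes on the array 14 were tested, and in limma none rose or fell (3 higher and 1 lower at an unadjusted p under 0.05, beside 12.5% and 9.36% of all tested probe sets). The 3 were Myc, Birc5 and Notum. Myc, the growth-promoting transcription factor gene on chromosome 15, had 872, 1453, 799.8 and 1384 in vehicle and 1657, 2493, 2606 and 2237 in BMP7 cells. All BMP7 arrays were above all vehicle arrays, with a log2 fold change of 1.01 ± 0.25 SE and an adjusted p of 0.0544 in limma. Ccnd1, the cyclin D1 gene, had 8656 ± 4363 and 7636 ± 570.2 (limma's adjusted p 0.975), and the matricellular gene Ccn4 1706 ± 449.9 and 1806 ± 204 (limma's adjusted p 0.796). The 1 lower gene, Ccn5, had 1619.7 ± 534 in vehicle and 859 ± 276 in BMP7 cells (limma's adjusted p 0.115).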

How the data were processed

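Biotinylated cRNA from 8 samples was hybridised to Affymetrix mouse 430A arrays, per the labels. The authors deposited an intensity for each of 22690 probe sets and sample, a linear signal. The submitters' processing notes name MAS5 as the program, without a version. Each column's mean without the highest and lowest 2% was 1500.4 to 1500.7, so 1 scaling had been applied. The authors also deposited group mean intensities, a ratio of the means and an unadjusted p-value, per the file headers. Columns were assigned through the sample accessions they carry, and the group means recomputed from them equal the deposited ones. A second copy with 8 per-sample columns, whose names match no sample, was not used.

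Values were analysed as log2(signal + 16). The 64 control probe sets were left out, and probe sets were tested where the mean log2 value reached the 40th percentile (8.41), which left 13585. Groups were compared with limma 3.58.1 (R 4.3.3, functions lmFit and eBayes, variance trended on mean intensity, two-sided p), adjusted by Benjamini-Hochberg over all tested probe sets at 0.05. The fit with no filter used 22626. The fitting steps were tested on simulated data. Alternatives changed the pseudocount, filter, normalization, array weights, variance trend, probe set choice, covariates (Actb 3'/5' ratio, hybridisation controls) and replicate block, and left out each array in turn. With 4 arrays in each group precision is limited by their number; the typical (median) standard error on the log2 scale was 0.25. No detection calls were used. Fold changes understate those of low signals, and levels of different probe sets were not compared.

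Values per array are given for those of the 43 genes that were tested with an unadjusted p under 0.05 or had groups that did not overlap, and for Axin2, Lef1, Tcf7, Nkd1 and Dkk1; pathway genes past the threshold are named, and those at an unadjusted p under 0.05 may be. Other genes with such values were chosen after their values were seen. The members and lists were chosen with earlier results of these data known. Symbols come from the deposited annotation, updated through RefSeq Entrez identifiers for the lists, chromosomes from that annotation, whose build is not stated, and promoter windows from RefSeq.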

Additional observations from a re-analysis of the deposited data

Results flagged for a closer look

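Among 86 groups of 4 arrays (43 genes in both groups), 5 held an array far from the others relative to the group's range on the log2 scale, and chance flags about 1 in 20 groups. For Fzd1, BMP7 1 had 954 against 1757 to 1936 on the other BMP7 arrays. For Fzd4, Vehicle 4 had 1436 against 3372 to 3709. For Fzd7, BMP7 3 had 1748 against 2694 to 2753. For Sfrp4, BMP7 2 had 1959.9 against 1035 to 1082. For Dvl1, Vehicle 3 had 6431 against 1190.4 to 1425.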

How the results depend on the processing

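The count of Wnt genes called higher was 0 in the fit reported here and in 19 of 22 alternatives, and 1 with no filter (Tcf7), with array weights and without Vehicle 4 (Fzd1 in both), so that it ranged from 0 to 1 when arrays were left out in turn. The count called lower was 0 in 21 alternatives and 1 with array weights (Tcf7l2). Of the other pathway genes 2 were called higher, 4 with array weights, 0 with the hybridisation covariate, 3 with the replicate block (adding Notum) and 0 to 3 with 1 array left out. None was called lower, 4 with array weights, and 1 when filtering at the 60th percentile, with quantile normalization, no probe sets ending _x_at, _s_at or _a_at, or the replicate block, and 0 to 1 with 1 array left out, without Vehicle 3 or Vehicle 4. Where 1 was called it was Tnks2. Among the genes followed under each setting, those given with values per array by rule, directions turned for Lrp6 (-0.047), Dvl1 (0.16), Dkk1 (-0.12) and Axin2 (0.12) with the hybridisation covariate, and for Axin2 (0.032) and Nkd1 (-0.0029) without BMP7 1; the cause was not tested. Over all tested receptors 8 of 9 were above 0, and 5 with the hybridisation covariate; of 3 tested ligands 1 was, and 0 with it. With 1 array left out Axin2 ranged from -0.52 to 0.032 and Nkd1 from -0.0029 to 0.93. Over all probe sets limma called 221 higher and 204 lower, but 1014 and 768 with array weights, 24 and 26 with the hybridisation covariate, 374 and 278 with the replicate block, 70 and 80 without Vehicle 1, 702 and 382 without Vehicle 4, 370 and 338 without Vehicle 3, and 39 to 84 and 51 to 129 without 1 BMP7 array. Of the calls 52.0% were higher, 64.8% without Vehicle 4 and 39.4% without BMP7 1. Same-numbered samples deviated together with correlations of 0.04 to 0.38, each highest with its own number, but the labels do not say that numbers pair samples. With the replicate block Dkk2 passed in the fit with no filter (adjusted p 0.0339). The probe set of highest mean log2 signal was an alternative chosen after seeing the data and changed none of these counts.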

Other observations

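Outside the Wnt genes, Stmn2, a microtubule regulator used here as a neuronal marker, had 320.4, 325, 125 and 142 in vehicle and 626, 809.7, 836 and 927 in BMP7 cells and rose (log2 fold change 1.84 ± 0.34 SE, adjusted p 0.0195 in limma). Its vehicle signals lay near or below the filter signal of about 324, so it was tested only because of its BMP7 arrays. Of the 8 mesenchymal markers above the filter 2 fell and none rose. Of these Pdgfra, a growth factor receptor gene, had 9378, 12369.5, 8263 and 6514 in vehicle and 4948, 3029, 3524 and 3402 in BMP7 cells and fell (log2 fold change -1.28 ± 0.23 SE, adjusted p 0.0176 in limma). The collagen gene Col3a1 fell as well, from 56732 ± 11727 to 31077 ± 2302 (adjusted p 0.0268 in limma).

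The genes whose log2 signal followed that of Fzd1 most closely over the 8 arrays were Surf2 (Pearson r 0.988), Gatad2a (0.982) and Me2 (0.982), as a description of arrays that share their 2 groups and their scaling.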
